A study of Nannochloropsis oceanica with 6 samples.

Results

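In the oleaginous microalga Nannochloropsis oceanica IMET1, 4 genes were followed through the start of nitrogen deprivation: NO11G02690 and NO03G00560, both of which the study calls type I fatty acid synthase (FASI), and NO03G02790 and NO01G02200, which the files describe by polyketide synthase hits. They are 4 of the 10569 genes in the tables, and they were picked with their levels in these libraries already known, so their levels and fold changes are given as a description without a test. C0 cells grew in nitrogen-replete f/2 medium under 80 µmol m-2 s-1 of continuous light and were taken in the logarithmic phase (day 0). By the study's methods, N1 and N2 cells were another part of the cells collected for C0. They were washed into nitrogen-free f/2 medium under 50 µmol m-2 s-1, and were taken after 1 day and 2 days. The loss of nitrogen, the dimmer light, the wash and the time in culture differ together between C0 and the other groups, so their parts cannot be told apart. No library came from nitrogen-replete cells on day 1 or day 2. Time in culture and time without nitrogen thus also differ together between N1 and N2. Each group held 2 mRNA-seq libraries.

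Type I synthases are giant proteins that carry the catalytic domains of fatty acid or polyketide assembly in 1 chain, together with an acyl carrier domain whose phosphopantetheine arm holds the growing acyl chain. In the type II system each step is a separate protein, as in bacteria and plastids, and a small free acyl carrier protein shuttles the chain between them. Fatty acid synthases reduce every unit that they add, whereas polyketide synthases may leave some reductive steps out. The sequence families overlap closely, so a best database hit to a polyketide synthase does not settle which product is made.

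The annotation in the files described a giant synthase for 3 of the 4 genes. NO11G02690 had a single transcript of 13341 bases, the 16th longest of all genes, and its best Swiss-Prot hit was a modular oleandomycin polyketide synthase. NO03G02790 had the longest transcript in the tables, 48853 bases, against 37677 bases for the next one (NO06G04750), with the pikromycin-pathway synthase PikA1 as its hit and the orthologous group KOG1202, animal-type fatty acid synthase. NO01G02200 had a transcript of 10479 bases, the 33rd longest, matched the reducing polyketide synthase hmp8 and was assigned to the KEGG gene FASN, the animal fatty acid synthase. All 3 carried the Gene Ontology term phosphopantetheine binding, which 12 genes, 0.114% of the tables, carried. The median transcript of all genes measured 1757 bases.

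NO03G00560 did not share these features. It had 3 transcripts, 2 of them marked as newly assembled, with a mean length between 1249 and 1288 bases across libraries. The files described it as a WD repeat-containing protein and assigned it to the KEGG entry WDR61/SKI8, a WD repeat subunit that works with RNA degradation in yeast and animals, and it lacked the phosphopantetheine term. The annotation thus went against the label type I synthase for this gene, and NO03G00560 is called the WD repeat gene here. By their identifiers, NO03G00560 and NO03G02790 belong to chromosome 3, NO11G02690 to chromosome 11 and NO01G02200 to chromosome 1. No coordinates were used here.

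The libraries held between 4875888 and 6523021 estimated counts. The study's text calls the libraries of a group biological replicates. The sample labels do not say whether they came from separate cultures, and p-values measure the spread between these libraries. Replicates differed by a mean chi-square per gene of 1.76 (C0), 2.06 (N1) and 3.42 (N2), with 1 as the value under pure counting error. The labels were checked with a nitrate transporter, NO14G02450, which was 5.23 ± 0.020 higher (log2, SE) in N1 and 5.80 ± 0.020 higher in N2, both set against C0. In edgeR's quasi-likelihood test with Benjamini-Hochberg adjustment over 9736 genes, 70.4% of genes were called (adjusted p below 0.05) between N1 and C0, 69.9% between N2 and C0 and 57.9% between N2 and N1. All 4 genes were called for N1 against C0 (1 higher, where 33.3% of genes were higher, and 3 lower, where 37.1% were lower) and for N2 against C0 (2 higher, where 35.0% were, and 2 lower, where 34.9% were). For N2 against N1, 3 of the 4 were called, all higher, where 29.4% of genes were. Since the genes were chosen on these contrasts, nothing is read from those counts.

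The 3 giant synthase-like genes took different courses. NO11G02690 and NO03G02790 were lowest after 1 day without nitrogen, whereas NO01G02200 was higher on each day than on the day before.

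**Figure D1:**
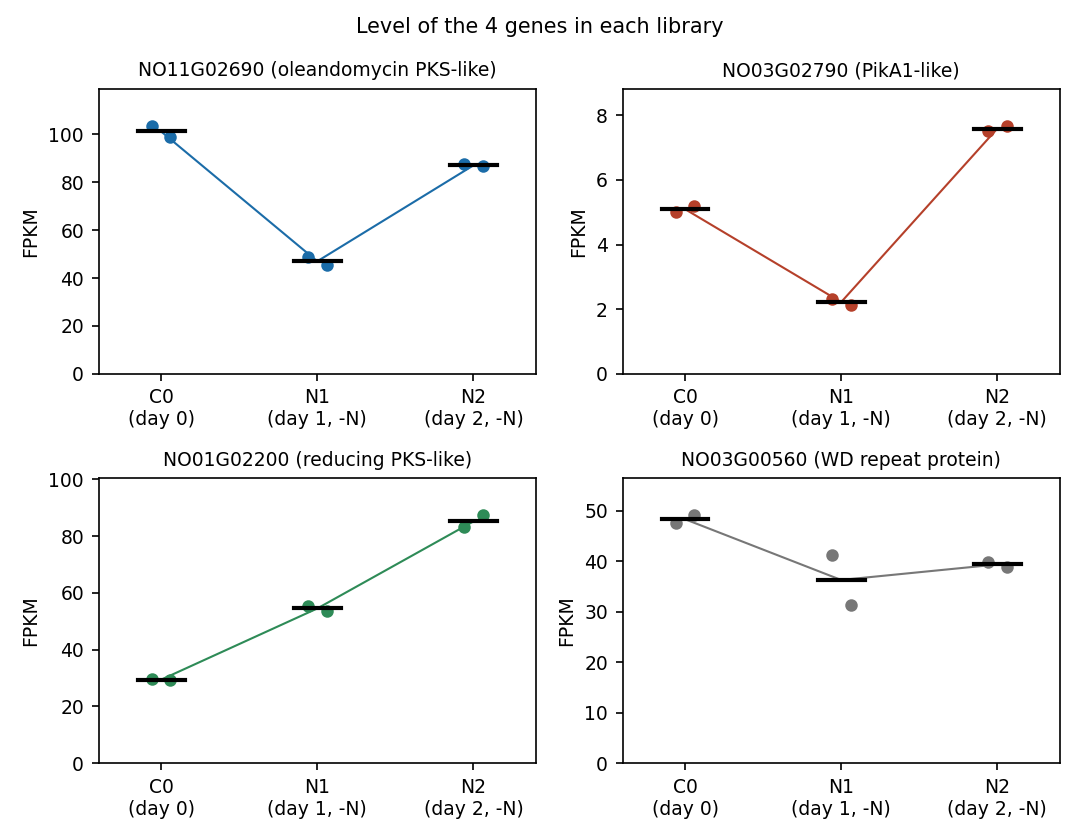
Level of the 4 genes in FPKM (vertical axis, starting at 0 and scaled to each gene) in C0, N1 and N2 (horizontal axis). Points are single libraries (2 a group), black bars are group means and lines join the means. NO11G02690 and NO03G02790 dip at N1, NO01G02200 climbs to 85.1 FPKM at N2, and the replicates of the WD repeat gene lie far apart at N1.

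NO11G02690 was the highest of the 4 genes in growing cells on the FPKM scale, which divides counts by transcript length and library size. It had 103 and 98.9 FPKM in the C0 libraries, 48.6 and 45.3 FPKM in the N1 libraries and 87.5 and 86.6 FPKM in the N2 libraries. The 3 groups did not overlap: C0 was highest, N2 stood a little under it and N1 was lowest. How many of all genes had groups without overlap was not counted. A lack of overlap, here and below, is therefore not read as particular to these genes. The estimated counts behind these values were 6789 and 6713 (C0), 3305 and 2885 (N1) and 7467 and 7218 (N2), and its replicates had a chi-square of 6.51 (C0), 7.78 (N1) and 0.495 (N2). In such bulk cultures, fewer cells that express a gene and less of its RNA per cell cannot be told apart. Its level in N1 relative to C0 was -1.05 ± 0.042 (log2 fold change from the edgeR fit, SE), and in N2 relative to C0 it was -0.26 ± 0.041. Between the days of deprivation it was 0.80 ± 0.041 higher in N2 than in N1. The size of the difference between N2 and C0 depended on the scale, since it was -0.11 on log2(TPM + 1), where TPM is scaled to the same total in every library. Among all genes NO11G02690 stood at the 87.6 and 87.0 percentile of FPKM in C0, the 70.7 and 68.1 percentile in N1 and the 86.1 and 85.8 percentile in N2.

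NO03G02790, the gene with the longest transcript, was the lowest of the 4 per length. Its level was 5.01 and 5.18 FPKM in C0, 2.32 and 2.12 FPKM in N1 and 7.51 and 7.66 FPKM in N2. No 2 groups overlapped, and N1 and N2 lay on opposite sides of C0. The fitted log2 fold change was -1.14 ± 0.061 (SE) in N1 against C0, 0.53 ± 0.054 in N2 against C0 and 1.68 ± 0.059 in N2 against N1. Low FPKM did not mean few reads here, because the transcript is so long: 1223 and 1308 counts (C0), 586 and 503 counts (N1) and 2381 and 2373 counts (N2) lay behind these levels. It stayed between the 11.4 and the 17.8 percentile of FPKM in every library.

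NO01G02200 went the other way on the first day. Its level was 29.5 and 29.3 FPKM in C0, 55.2 and 53.7 FPKM in N1 and 83.0 and 87.3 FPKM in N2. The groups stood apart in the order C0, N1, N2, with the replicates of a group much closer to each other than to any other group. The log2 fold change was 0.94 ± 0.047 (SE) in N1 against C0, 1.50 ± 0.047 in N2 against C0 and 0.55 ± 0.045 in N2 against N1. The C0 libraries held 1511 and 1554 of its counts, the N1 libraries 2930 and 2669 and the N2 libraries 5537 and 5682. From the middle of the FPKM range in C0 (51.6 and 51.5 percentile) it was at the 85.1 and 85.9 percentile in N2, beside NO11G02690.

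The WD repeat gene NO03G00560 had the smallest fold change of the 4 in N1 against C0 and in N2 against N1, and the largest standard errors. In N2 against C0 the fold change of NO11G02690 was smaller. It had 47.6 and 49.1 FPKM in C0, 41.3 and 31.3 FPKM in N1 and 39.9 and 38.9 FPKM in N2. Both N1 and both N2 libraries lay under both C0 libraries, but N2 lay inside the span of N1. Only 238 and 248 counts (C0), 209 and 152 counts (N1) and 259 and 243 counts (N2) were assigned to it, and its N1 replicates differed by a chi-square of 5.69, where all genes of N1 averaged 2.06. The log2 fold change was -0.36 ± 0.12 (SE) in N1 against C0, -0.33 ± 0.12 in N2 against C0 and 0.026 ± 0.12 in N2 against N1. Without N1 replicate 2 the first of these was -0.15. Of the 4 genes it was the one whose calls for N1 against C0 and for N2 against C0 ended with the DESeq2 test. As the genes were chosen on these contrasts, nothing is read from the calls of the 4 genes.

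The dip of NO11G02690 together with the climb of NO01G02200 changed which giant synthase-like transcript led. The ratio of NO11G02690 to NO01G02200 in FPKM was 3.51 and 3.37 at C0, 0.881 and 0.844 at N1 and 1.05 and 0.992 at N2. NO11G02690 was thus well above NO01G02200 in growing cells, under it after 1 day and level with it, within the spread of the libraries, after 2 days. NO03G02790 kept its place under both, with NO11G02690 at 20.6 and 19.1 times its level in C0, 21.0 and 21.4 times in N1 and 11.7 and 11.3 times in N2. NO01G02200 was 5.88 and 5.66 times as high as NO03G02790 in C0, 23.8 and 25.3 times in N1 and 11.1 and 11.4 times in N2.

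Summed over the 3 giant genes, the level was 138 and 134 FPKM in C0, 106 and 101 FPKM in N1 and 178 and 182 FPKM in N2. The sum was lowest on the first day and highest on the second, with no overlap between groups. With the other polyketide synthase-like genes NO06G02810 and NO08G01430 counted in, the sum over 5 genes was 159 and 156 FPKM in C0, 149 and 142 FPKM in N1 and 220 and 225 FPKM in N2. The order of the groups was the same, but N1 then stood closer to C0. Of the sum over the 3 giant genes, NO11G02690 made up 75.0 and 74.1% at C0, 45.8 and 44.8% at N1 and 49.1 and 47.7% at N2. NO01G02200 made up 21.4 and 22.0% of that same sum at C0, 52.0 and 53.1% at N1 and 46.6 and 48.1% at N2. NO03G02790 never reached more than a small part of the sum over 3 genes, with mean shares of 3.76% at C0, 2.14% at N1 and 4.22% at N2.

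The type II genes of fatty acid synthesis that the study named formed the nearest comparison. They supply the malonyl units and carry out the separate steps of chain building, and they were named in the study of these same libraries and taken up here with their changes known, so their direction is not used as independent evidence. All 9 rose in N1 against C0, with log2 fold changes between 0.54 and 1.80 and a median of 1.00, beside a median of -0.044 over all genes. In N2 against N1 all 9 fell, between -2.25 and -0.33 with a median of -1.05, beside 0.0046 over all genes. In N2 against C0, 5 were higher and 4 lower, with a median of 0.14 beside 0.0089. Each of these differences was called. For all tested genes the called shares, higher and lower, were 33.3 and 37.1% in N1 against C0. They were 35.0 and 34.9% in N2 against C0, and 29.4 and 28.5% in N2 against N1. The fall of NO29G00550 in N2 against N1 was not called without N2 replicate 2 (edgeR adjusted p = 0.0823), which left 8 of 9, and NO30G00840 in N2 against C0 was not called without N2 replicate 1 (adjusted p = 0.0900).

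Acetyl-CoA carboxylase (NO09G00220), which makes malonyl-CoA, had 99.2 ± 1.81 FPKM in C0, 333 ± 5.72 in N1 and 205 ± 9.77 in N2 (SD, n = 2 each). It rose by 1.80 ± 0.038 (log2, SE) in N1 against C0 (edgeR adjusted p = 1.29e-14) and fell in N2 against N1 (-0.79 ± 0.037, adjusted p = 4.67e-10). Enoyl-ACP reductase (NO23G00560), which completes each round of chain reduction, had 51.9 ± 0.502 FPKM in C0, 170 ± 0.707 in N1 and 88.0 ± 0.912 in N2. The ketoacyl-ACP synthase NO28G00420, whose best hit is 3-oxoacyl-ACP synthase 3, had 103 ± 2.60 FPKM in C0, 177 ± 0.523 in N1 and 38.7 ± 2.79 in N2. It rose by 0.85 ± 0.067 in N1 against C0 (edgeR adjusted p = 3.19e-08) and had the largest fall of the 9 in N2 against N1 (-2.25 ± 0.075, adjusted p = 1.41e-11). The acyl carrier protein gene NO30G00840, whose product holds the chain in the type II system, was the highest of the 9 with 553 ± 1.63 FPKM in C0, 1492 ± 51.3 in N1 and 613 ± 32.0 in N2.

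NO11G02690 and NO03G02790 thus had their lowest level on the day on which each of the 9 type II genes had its highest, and both were higher in N2 than in N1 while all 9 fell. NO01G02200 was higher in N1 than in C0, as the type II genes were, but was higher still in N2. The summed FPKM of the 9 type II genes was 11.2 and 12.0 times that of the 3 giant genes in C0, 33.9 and 36.7 times in N1 and 10.2 and 9.73 times in N2. The ratio in N1 lay far outside the span of the other groups. Its lower part leaves out NO06G02810 and NO08G01430. With them the mean sum was 145 FPKM in N1 and 158 in C0, beside 104 and 136 for the 3 giant genes. Its upper part holds NO30G00840, with 1492 of the mean 3658 FPKM in N1. The ratio was not tested, because the 3 genes were chosen on these libraries.

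**Figure D2:**
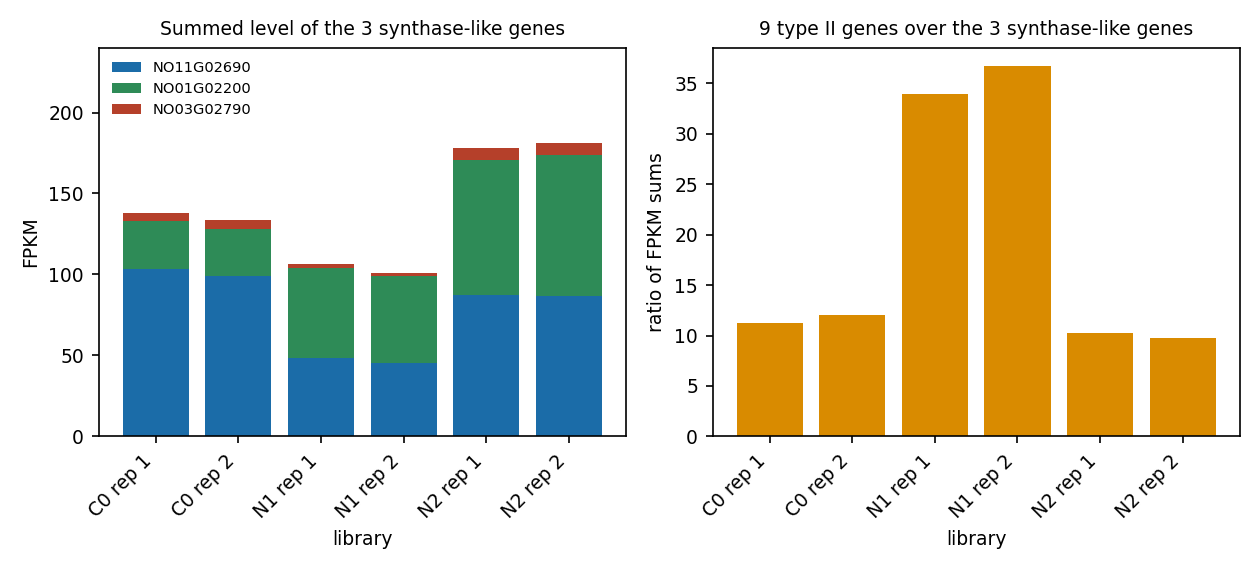
Left, FPKM of NO11G02690, NO01G02200 and NO03G02790 stacked for each of the 6 libraries, with the axis starting at 0. Right, summed FPKM of the 9 type II genes divided by that of the 3 giant genes in the same libraries, which stood at 33.9 and 36.7 in N1 and between 9.73 and 12.0 in N2 and C0.

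Beyond the chosen genes, the description polyketide synthase was given to 2 others, NO06G02810 and NO08G01430, both also with hmp8 as the best hit and with the phosphopantetheine term. NO08G01430, with a transcript of 12973 bases, had 38.1 and 36.2 FPKM in N1, against 17.2 and 19.1 FPKM in C0, a rise of 1.08 ± 0.055 (log2, SE, edgeR adjusted p = 2.03e-10). In N2 it had 34.8 and 35.7 FPKM, higher than C0 by 0.92 ± 0.055 (adjusted p = 1.65e-09) and slightly lower than N1 (-0.17 ± 0.052, adjusted p = 0.0128). Its N2 and N1 libraries stood close together, and both groups lay well above C0. NO06G02810, with a transcript of 9416 bases, was low, with 4.01 and 3.48 FPKM in C0, 4.31 and 4.41 FPKM in N1 and 7.68 and 7.54 FPKM in N2. It rose by 0.71 ± 0.098 in N2 against N1 (edgeR adjusted p = 2.41e-05) and by 0.99 ± 0.10 in N2 against C0 (adjusted p = 5.58e-07), with a small difference in N1 against C0 (0.28 ± 0.11, adjusted p = 0.0404). That last call ended with library totals only, with the DESeq2 test and without C0 replicate 2, N1 replicate 1 or N1 replicate 2 (adjusted p between 0.0760 and 0.277), and the fall of NO08G01430 in N2 against N1 ended with library totals only and without N1 replicate 1 or N2 replicate 1 (adjusted p between 0.0643 and 0.237). The libraries of both genes, like those of NO01G02200, lay above C0 on each day without nitrogen, and neither gene had the dip of NO11G02690 and NO03G02790.

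**Figure D3:**
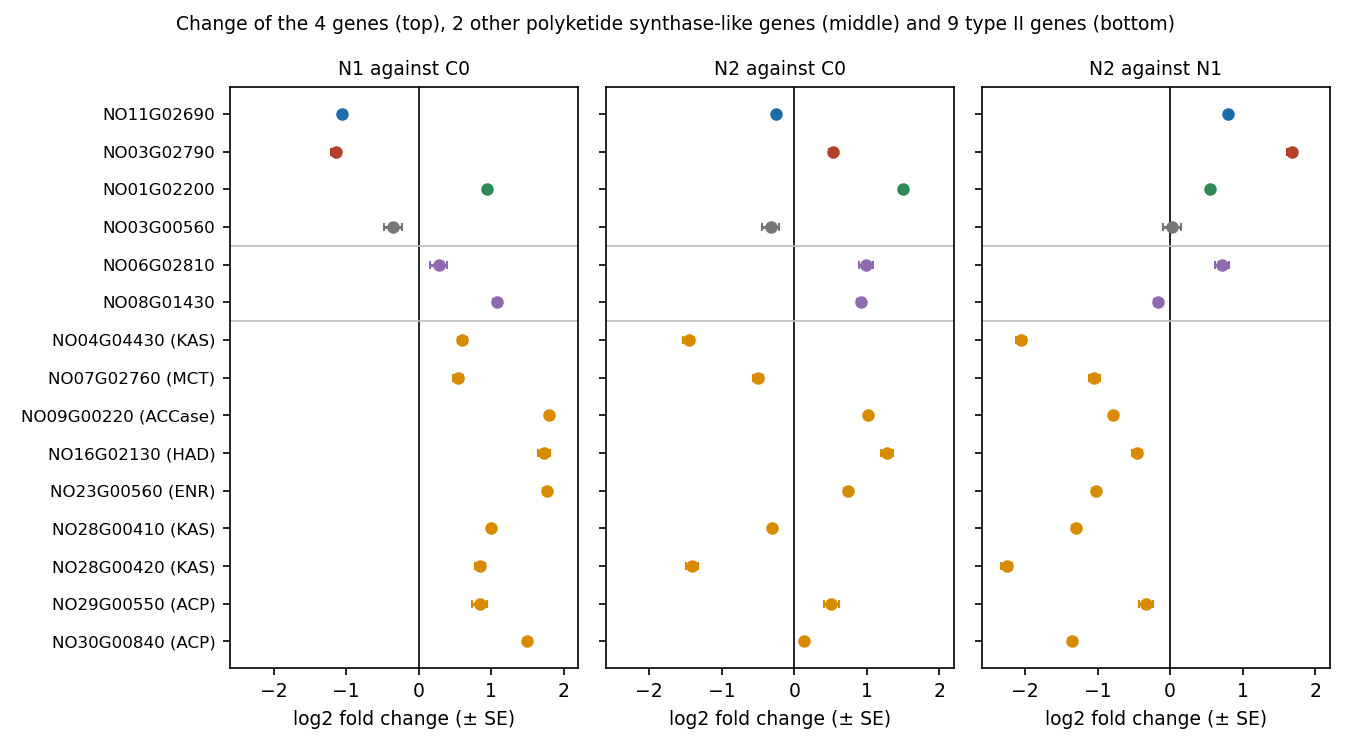
Log2 fold change from the edgeR fit (horizontal axis) for N1 against C0, N2 against C0 and N2 against N1. Bars are standard errors derived from the F statistic of the test. KAS is ketoacyl-ACP synthase, MCT malonyl transacylase, HAD hydroxyacyl-ACP dehydratase, ENR enoyl-ACP reductase, ACCase acetyl-CoA carboxylase and ACP acyl carrier protein. The 4 chosen genes are at the top, the 2 other polyketide synthase-like genes in the middle and the 9 type II genes at the bottom. In N2 against N1 the 9 type II genes lie between -2.25 and -0.33 and the 3 giant genes between 0.55 and 1.68.

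Phosphopantetheinyl transfer is the step that arms the carrier domain of any such synthase. The transferase gene NO13G00870 was low but rose strongly, to 5.50 ± 0.453 FPKM in N1, against 1.35 ± 0.134 FPKM in C0 (SD, n = 2 each), a log2 fold change of 2.08 ± 0.25 (SE, edgeR adjusted p = 3.16e-06). In N2 it had 7.82 ± 0.481 FPKM, 2.50 ± 0.23 higher than in C0 (adjusted p = 2.26e-07), while the difference between N2 and N1 did not pass (0.43 ± 0.18, adjusted p = 0.0596, or 0.0253 with library totals only). In the wider search for acyl carrier and phosphopantetheine descriptions, which shares genes with the type II list, 14 of 23 tested genes were higher and 7 lower in N1 against C0 (median 0.60). There, 7 were higher and 12 lower in N2 against C0 (median -0.31), and 1 was higher (5 with library totals only) and 13 lower in N2 against N1 (median -0.33). Over all tested genes, 33.3% were called higher and 37.1% lower in N1 against C0. Those shares were 35.0% and 34.9% in N2 against C0, and 29.4% and 28.5% in N2 against N1.

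The wider list of fatty acid synthesis by description, which also holds most of the type II genes, had 18 of 28 tested members higher and 7 lower in N1 against C0 (median 0.57). It had 12 higher and 11 lower in N2 against C0 (median 0.052), and 7 higher (4 with the DESeq2 test) and 15 lower in N2 against N1 (median -0.31). The shares of all genes called higher and lower were 33.3 and 37.1%, 35.0 and 34.9%, and 29.4 and 28.5% in turn. Ethylmalonyl-CoA decarboxylase (NO13G02760), which in animals clears a side product of acetyl-CoA carboxylase, had 23.5 ± 0.743 FPKM in N1, against 64.3 ± 8.45 FPKM in C0, a fall of -1.40 ± 0.12 (log2, SE, edgeR adjusted p = 8.36e-08). In N2 it had 55.7 ± 0.248 FPKM and was 1.18 ± 0.12 higher than in N1 (adjusted p = 1.25e-06). The search took any description with the letters malonyl, so this gene and methylmalonyl-CoA mutase (NO08G02030) are on the list. Being on the list therefore does not make a gene one of fatty acid synthesis. Of this list NO13G02760 was the gene whose pattern lay nearest to both NO11G02690 and NO03G02790.

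Acyl-CoA synthetases activate free fatty acids by joining them to coenzyme A. Of 10 tested, 3 were higher and 5 lower in N1 against C0, 5 higher and 4 lower in N2 against C0, and 2 higher and 4 lower in N2 against N1. Over all genes the shares higher and lower were 33.3 and 37.1%, 35.0 and 34.9%, and 29.4 and 28.5% in turn. Without N1 replicate 2, 3 synthetases were lower in N1 against C0, and with library totals only, 4 were higher in N2 against N1. The long-chain-fatty-acid CoA ligase NO25G00730 had the widest swing of them, with 45.7 ± 2.35 FPKM in C0, 3.86 ± 0.134 in N1 and 74.4 ± 2.53 in N2 (SD, n = 2 each). It fell by 3.51 ± 0.11 on the log2 scale in N1 against C0 (edgeR adjusted p = 1.18e-12) and rose by 4.19 ± 0.10 in N2 against N1 (adjusted p = 9.14e-13). ACSBG2 (NO06G00640), the synthetase nearest in pattern to NO03G02790, had 130 ± 1.75 FPKM in C0, 97.6 ± 0.0283 in N1 and 211 ± 11.7 in N2.

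Elongases lengthen finished fatty acids in the endoplasmic reticulum. Of 12 tested genes of this list, 3 were higher and 4 lower in N1 against C0, 4 higher and 5 lower in N2 against C0, and 5 higher and 3 lower in N2 against N1. Among all genes, 33.3 and 37.1%, 35.0 and 34.9%, and 29.4 and 28.5% were called higher and lower in turn. In N2 against N1, 3 of the list were higher with the DESeq2 test or without N1 replicate 2. There, 1 was lower with library totals only or without N1 replicate 1 or N2 replicate 2. NO03G03780 had the largest fall in N1 against C0, with 15.3 ± 0.255 FPKM in N1, against 80.8 ± 5.65 FPKM in C0 (-2.35 ± 0.073, edgeR adjusted p = 8.51e-13), and it rose in N2 against N1 (1.22 ± 0.077, adjusted p = 9.62e-09). NO29G00510, the elongase nearest in pattern to NO11G02690 and to NO03G02790, had 62.0 ± 2.14 FPKM in C0, 23.1 ± 0.933 in N1 and 51.8 ± 2.88 in N2.

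WD repeat proteins were counted because the files put NO03G00560 among them. Of 55 others tested, 23 were higher and 23 lower in N1 against C0 (median 0.039), 22 higher and 17 lower in N2 against C0 (median 0.12), and 14 higher and 19 lower in N2 against N1 (median -0.031). Shares over all genes, higher and lower, were 33.3 and 37.1%, 35.0 and 34.9%, and 29.4 and 28.5% in turn. Of the 55, the one nearest to NO03G00560 in pattern was a WD repeat and FYVE domain gene, NO01G03550, with 21.3 ± 0.842 FPKM in C0, 14.4 ± 1.00 in N1 and 16.3 ± 1.12 in N2. The widest rise was that of NO10G00730, a WD repeat and U-box gene, with 341 ± 5.09 FPKM in N1, against 33.1 ± 0.347 FPKM in C0 (3.41 ± 0.050, edgeR adjusted p = 1.95e-16).

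The list searched for type I synthase and polyketide words matched 27 genes, 21 of them only by the letters type I, which also took in inositol phosphatases, kinases and peroxiredoxins. Without the chosen genes it had 11 of 24 higher and 7 lower in N1 against C0, 7 higher and 9 lower in N2 against C0, and 4 higher and 14 lower in N2 against N1. For all genes the shares higher and lower were 33.3 and 37.1%, 35.0 and 34.9%, and 29.4 and 28.5% in turn. The counts of this list therefore describe mostly unrelated genes. No gene of the tables was described as fatty acid synthase, and KOG1202 and the KEGG gene FASN were each given to 3 genes.

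Long transcripts as a class moved in part with these results. Apart from the 3 giant genes, 38 tested genes had transcripts of at least 10000 bases. In N1 against C0, 7 of them were higher and 21 lower, with a median log2 fold change of -0.21, beside -0.043 for transcripts under 5000 bases. In N2 against N1, 22 were higher and 4 lower, with a median of 0.38, beside 0.00072. In N2 against C0, 15 were higher and 13 lower (median 0.12, beside 0.0045). Of all tested genes, 33.3% were called higher and 37.1% lower in N1 against C0. These shares were 29.4% and 28.5% in N2 against N1, and 35.0% and 34.9% in N2 against C0.

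Within the class of 41 genes with long transcripts, the giant genes counted in, NO03G02790 had the 7th lowest fold change in N1 against C0 and the 2nd highest in N2 against N1. NO11G02690 stood 8th from the lowest in N1 against C0 and 12th from the highest in N2 against N1. NO01G02200 was against the class in N1, where it was the 4th highest, and it was the 2nd highest in N2 against C0. NO08G01430, also in the class, had a larger rise in N1 against C0 (1.08, beside 0.94 for NO01G02200). The part of transcript length in the levels of these genes was not tested.

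**Figure D4:**
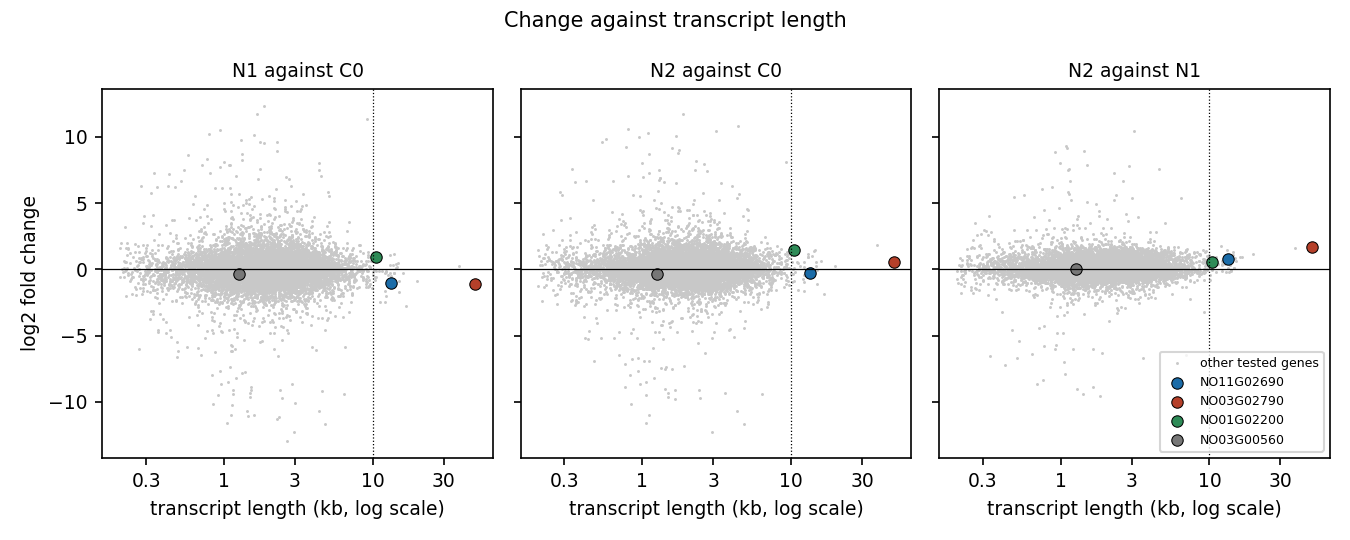
Log2 fold change of every tested gene (vertical axis) against mean transcript length in kb (horizontal axis, log scale) for the 3 comparisons, with the 4 chosen genes in colour. The dotted line marks 10 kb, above which N2 against N1 has a median of 0.38 over the 38 other genes.

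The genes nearest in pattern were looked for among 5276 genes with a named function and a mean of at least 10 CPM. Likeness was the root mean square difference of log2(CPM + 1) over the 6 libraries, each gene centred on its own mean, so that a smaller value means a closer course. Those genes were picked for their likeness, and their values are a description.

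Nearest to NO11G02690 were a beta-glucuronosyltransferase (NO02G00650, 0.026), a vacuolar proton pump driven by pyrophosphate (NO13G01250, 0.049) and a protein disulfide isomerase (NO03G03410, 0.054), against a median of 0.52 over the candidates. The proton pump, which acidifies the vacuole, had 528 ± 27.7 FPKM in C0, 257 ± 12.2 in N1 and 457 ± 5.71 in N2 (SD, n = 2 each). For NO03G02790 the nearest lay further off: a UDP-N-acetylglucosamine transporter (NO22G01080, 0.094), gamma tubulin (NO01G02860, 0.12) and the rhamnose synthesis gene RHM3 (NO02G01660, 0.12), against a median of 0.77. Gamma tubulin, which nucleates microtubules, had 25.0 ± 3.19 FPKM in C0, 10.7 ± 0.113 in N1 and 31.9 ± 0.545 in N2.

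Nearest to NO01G02200 were mitochondrial pyruvate carboxylase (NO04G04130, 0.042), a citrate/oxoglutarate carrier (NO11G02760, 0.047) and VPS13 (NO04G00620, 0.063), against a median of 0.69. Pyruvate carboxylase, which makes oxaloacetate from pyruvate, had 29.7 ± 0.177 FPKM in C0, 61.4 ± 1.37 in N1 and 93.0 ± 3.34 in N2. The carrier, which moves citrate across membranes, had 31.3 ± 1.47 FPKM in C0, 62.0 ± 0.0141 in N1 and 94.7 ± 6.60 in N2. Nearest to the WD repeat gene were a tRNA methyltransferase (NO09G01460, 0.039), the ribosomal RNA processing gene RRP8 (NO05G04810, 0.040) and a ubiquitin-like modifier-activating enzyme (NO21G01780, 0.055), against a median of 0.37.

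Of the type II genes, 8 were among the candidates, and NO30G00840, which has no description in the files, was not compared. The nearest was the acyl carrier protein NO29G00550, which the files describe as mitochondrial, for NO11G02690 (0.78) and for NO03G02790 (0.94), the dehydratase NO16G02130 for NO01G02200 (0.44) and the transacylase NO07G02760 for the WD repeat gene (0.49). Only for NO01G02200 was that nearer than the median candidate (0.69). Among the 4 genes themselves, NO11G02690 lay at 0.35 from the WD repeat gene, at 0.39 from NO03G02790 and at 0.89 from NO01G02200. NO03G02790 and NO01G02200 lay at 0.85 from each other, further than the median candidate from either.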

How the data were processed

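The authors deposited 1 table of gene values for each mRNA-seq library (poly-A RNA; strand was not used here). Per the file headers the deposited tables hold estimated counts (expected counts), TPM and FPKM with lengths and annotation. The columns are of a kind that RSEM writes, which is not named in the sources used here. The submitters' processing notes name Trim Galore, STAR, Picard, featureCounts, StringTie and edgeR, with versions not given in the sources used here. The genome build was not used. The authors' comparison tables hold their own fold changes and p-values and 12 columns of per-sample values, none of which was used.

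Estimated counts were rounded (78.9 to 80.1% of values were already whole within 0.005, and all values of the 4 chosen genes were). A gene was kept where 2 or more libraries had 1 CPM or more, which gave 9736 genes and left out 833 with 0.0135% of counts. All 6 libraries went into 1 edgeR 4.0.16 quasi-likelihood fit in R 4.3.3 with TMM factors between 0.962 and 1.04 and group as the factor. Calls had a Benjamini-Hochberg adjusted p below 0.05, two-sided. Each SE of a log2 fold change was derived as its absolute value divided by the square root of the F statistic of that test. It is not the spread between the replicates of that gene alone. The fit was tested on simulated counts. Levels between genes are compared in FPKM only, whose library totals ran from 623377 to 677173.

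The alternatives were DESeq2 1.42.0 (its size factors and its test), library totals only, no filter, the replicate number as a block, each library left out, log2(FPKM + 1), log2(FPKM + 0.1) and log2(TPM + 1), the last chosen after seeing the data. The chosen genes and the lists, which were searched by description, were chosen with earlier results of these data known. Named were the 4 genes, the 9 type II genes, genes described as polyketide synthase, the largest called rise and fall and the highest FPKM of each list (mean of at least 10 CPM), the 3 genes nearest in pattern to each chosen gene and the nearest of each list. A part of these is named in the text. Precision is limited by 2 libraries a group.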

Additional observations from a re-analysis of the deposited data

Results flagged for a closer look

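NO03G02790 drew attention because both N1 libraries lay under both C0 libraries while both N2 libraries lay above them, and the log2 fold change between N2 and N1 was 1.68. The gene was chosen on these contrasts, so no p-value is given and its call in the edgeR fit is no independent test of the difference.

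Of the type II genes, 4 were called higher in N1 and lower in N2, each against C0, so the effects of day 1 and day 2 had opposite signs. Opposite calls against the same C0 libraries already imply a difference between N2 and N1, so the edgeR values of that contrast give its size and are no further evidence. The log2 fold change of N2 against N1 was -2.06 for the ketoacyl-ACP synthase NO04G04430 (adjusted p = 2.29e-11), -1.05 for the transacylase NO07G02760 (adjusted p = 2.16e-08), -1.30 for the ketoacyl-ACP synthase NO28G00410 (adjusted p = 2.11e-11) and -2.25 for the ketoacyl-ACP synthase NO28G00420 (adjusted p = 1.41e-11). These genes were taken up with their changes known.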

How the results depend on the processing

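All 33 alternative counts of called genes were within 1.5 times the counts given, which is a wide margin. The lowest count of each comparison came from the DESeq2 test. It called 5811 genes between N1 and C0, where the edgeR fit called 6851. Between N2 and C0 it called 5637 (edgeR 6806), and between N2 and N1 4303 (edgeR 5633). The shares of all genes set beside the lists are those of the edgeR fit. Leaving out each library gave 6203 to 6805 calls for N1 against C0, 6070 to 6855 for N2 against C0 and 4892 to 5567 for N2 against N1. With library totals only, 61.1% of the calls of N2 against N1 were higher instead of 50.8%, and the median of all genes was 0.099. Replicate numbers did not pair the libraries (correlations of deviations -0.026, 0.0094 and -0.035), and the fit with the replicate block gave 6745, 6689 and 5527 calls, with NO11G02690 at -1.05 and NO01G02200 at 0.94 in N1 against C0.

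Of 168 alternative fold changes of the 4 genes, 135 stayed within the spread between replicates, 30 moved beyond it and 3 changed sign. Some of the 168 leave out a library of the group outside the comparison, which hardly changes a fold change. The count of 135 is therefore no measure of stability. The sign changed for NO03G00560 in N2 against N1, near 0 to begin with: -0.0096 with DESeq2 size factors, -0.0073 with the DESeq2 test and -0.18 without N1 replicate 2. For N1 against C0, N2 against C0 and N2 against N1 in turn, leaving out each library gave -1.10 to -0.96, -0.29 to -0.23 and 0.71 to 0.84 for NO11G02690, and -0.55 to -0.15, -0.35 to -0.31 and -0.18 to 0.22 for NO03G00560. It gave -1.20 to -1.04, 0.51 to 0.56 and 1.58 to 1.74 for NO03G02790, and 0.93 to 1.00, 1.45 to 1.54 and 0.49 to 0.60 for NO01G02200.

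With library totals only, N2 against N1 was 0.89 for NO11G02690, 1.77 for NO03G02790 and 0.65 for NO01G02200, N1 against C0 was 0.89 for NO01G02200 and N2 against C0 was -0.29 for NO03G00560. On log2(FPKM + 1), N2 against N1 was 0.88 for NO11G02690, 1.42 for NO03G02790 and 0.63 for NO01G02200, N1 against C0 was -0.92 for NO03G02790 and 0.87 for NO01G02200, and N2 against C0 was -0.29 for NO03G00560. On log2(FPKM + 0.1), N2 against N1 was 0.89 for NO11G02690 and 0.64 for NO01G02200, N1 against C0 was 0.89 for NO01G02200 and N2 against C0 was -0.30 for NO03G00560. On log2(TPM + 1), N2 against C0 was -0.11 for NO11G02690, -0.19 for NO03G00560, 0.61 for NO03G02790 and 1.62 for NO01G02200, N2 against N1 was 0.92 for NO11G02690, 1.56 for NO03G02790 and 0.68 for NO01G02200, and N1 against C0 was -0.94 for NO03G02790. NO01G02200 in N1 against C0 was 0.98 with DESeq2 size factors and 0.98 with the DESeq2 test. The cause of these shifts was not tested.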

Other observations

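The phosphopantetheine binding term, usually given to carrier domains, was held by 9 genes beside the 3 giant ones, with transcripts of 555 to 12973 bases. Among these 9 are NO06G02810, NO08G01430 and NO29G00550, whose changes are already given above. The log2 fold changes of the 9 in N1 against C0 ran from -0.67 to 2.77, 8 above 0 and 1 below. Their median was 0.35, beside -0.044 over all genes. In N2 against C0 the fold changes ran from 0.19 to 1.75, all 9 above 0, with a median of 0.92, beside 0.0089 over all genes. In N2 against N1 they ran from -1.02 to 0.96, 4 above 0 and 5 below. These counts include differences that were not tested.

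Picked from these 9 after their values were seen, NO03G03980, whose best hit is the linear gramicidin dehydrogenase LgrE, had 18.9 and 23.5 FPKM in C0, 128 and 152 FPKM in N1 and 73.9 and 70.0 FPKM in N2. It was highest on the first day, like the type II genes. NO14G03150, described as a thioesterase of candicidin-type biosynthesis, had 4.62 and 4.23 FPKM in C0, 5.18 and 5.52 FPKM in N1 and 11.0 and 11.3 FPKM in N2. It was highest on the second day, without overlap between groups. NO28G00610, a VAT-1 homolog, had 17.8 and 19.1 FPKM in C0, 67.4 and 62.8 FPKM in N1 and 55.7 and 54.1 FPKM in N2.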
